A study of Mus musculus with 44 samples.

Results

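The platelet-derived growth factor (PDGF) family was followed in fibroblasts sorted from mouse mammary glands and mammary tumors. Its members were the 7 genes of the deposited count table, out of 55486 named genes, whose symbols are Pdgfa, Pdgfb, Pdgfc and Pdgfd, which encode the ligand chains, Pdgfra and Pdgfrb, which encode the receptors, and Pdgfrl, which encodes a receptor-like protein. They were chosen by name, with earlier results of these data known. Control, WB1P or WB1P-Myc mammary tissue had been placed in the mammary glands of female En1-Cre;mTmG recipients, in which Cre driven by En1 switches cells of the En1 lineage and their descendants to GFP. WB1P donors carried WapCre, Brca1 F/F and Trp53 F/F, so that Wap-driven Cre deletes both tumor suppressors in mammary epithelium, WB1P-Myc donors carried in addition a Cre-inducible Myc transgene, and control tissue came from donors without WapCre, whose floxed alleles are not reported here in full. All recipients share the En1-Cre and mTmG alleles, and tumors were described as end-stage. The labels mark 2 WB1P-Myc mice, replicates 4 and 5, as 8x8. Read as a size in mm, this mark is the one that defines the advanced stage before end stage in these models, so that both tumors may have been taken earlier than the others. Recipient ages are not given in the labels.

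Fibroblasts were EpCAM-, CD49f-, CD31- and CD45- cells, a gate against epithelial, endothelial and immune cells that holds no pericyte marker, and were sorted by surface CD26 and by GFP into En1+, CD26+, double+ and double- populations. PDGF receptors were not used in this sort. The 44 libraries came from 13 mice, 3 control, 5 WB1P and 5 WB1P-Myc, with 5790599 to 15240328 counts each. Control labels hold a pair of numbers, and each was counted as 1 mouse, since the labels do not say whether animals were pooled. For each mouse and CD26 class the counts of its libraries were summed, which gave 25 sums. CD26- sums number 3 for control fibroblasts (NFs), 5 for WB1P and 5 for WB1P-Myc cancer-associated fibroblasts (CAFs). CD26+ sums number 3, 4 and 5, because WB1P replicate 1 gave an En1+ library only. Some sums hold 1 library and thus 1 En1 population. In the CD26- class these are WB1P replicate 1 (En1+) and WB1P-Myc replicates 1 and 3 (double-). In the CD26+ class they are WB1P replicate 3 and WB1P-Myc replicates 2 and 3 (double+). Levels are CPM, the share of a gene in all counts of the sum on the usual CPM scale. Dpp4, the gene of CD26, had 0.619 to 17.6 CPM in all CD26- sums and 223 to 846 CPM in all CD26+ sums, and the 6 fibroblast markers of the list (Col1a1, Col1a2, Col3a1, Dcn, Lum and Fbln1) together had 32644 to 83381 CPM in the 25 sums.

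PDGF ligands are dimers of A, B, C and D chains. The α receptor binds A, B and C chains, and the β receptor binds B and D chains, and both are tyrosine kinases whose dimers recruit phosphatidylinositol 3-kinase, phospholipase C gamma, Src kinases and adaptor proteins. A and B chains are cleaved by furin-like convertases inside the cell, whereas C and D chains are secreted in a latent form whose CUB domain must be removed outside the cell by proteases such as the plasminogen activators. In the stroma the α receptor marks fibroblasts and their progenitors, and the β receptor is carried by fibroblasts and, strongly, by pericytes, which are held on vessels by PDGF-B from endothelium. Pdgfrl has extracellular domains that resemble those of the receptors but no kinase domain, and its function is less well known.

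Sequence upstream of the start is shown for the members found in the RefSeq promoter table (GRCm38.p6). This sets side by side ligand genes that rose in CAFs, a ligand gene without a called change and a receptor gene that fell. Pdgfa, Pdgfc, Pdgfd and Pdgfra were found, 4 of the 7 members. Only bases upstream of the start that lie in no annotated exon (GENCODE M21) are given, 5′ to 3′ on the strand of the gene. For Pdgfa the table holds 2 starts. One of them had only 47 bases before an annotated exon and was neither printed nor searched. The start used is that of a shorter transcript, so that its stretch lies inside the annotated gene and in an intron of longer transcripts. Capitals mark CpG dinucleotides and a TATA box (TATAAA). The 4 stretches are:
Pdgfa upstream, chr5:138995038-138995194, minus strand: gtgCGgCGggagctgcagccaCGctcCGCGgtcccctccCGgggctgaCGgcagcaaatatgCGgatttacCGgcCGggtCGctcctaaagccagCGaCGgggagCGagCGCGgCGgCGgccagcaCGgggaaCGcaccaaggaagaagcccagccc
Pdgfc upstream, chr3:81036166-81036415, plus strand: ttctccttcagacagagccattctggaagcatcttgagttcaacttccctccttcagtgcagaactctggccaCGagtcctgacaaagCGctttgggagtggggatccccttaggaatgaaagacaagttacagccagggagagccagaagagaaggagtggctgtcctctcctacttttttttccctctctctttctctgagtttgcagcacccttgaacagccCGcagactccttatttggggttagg
Pdgfd upstream, chr9:6168236-6168485, plus strand: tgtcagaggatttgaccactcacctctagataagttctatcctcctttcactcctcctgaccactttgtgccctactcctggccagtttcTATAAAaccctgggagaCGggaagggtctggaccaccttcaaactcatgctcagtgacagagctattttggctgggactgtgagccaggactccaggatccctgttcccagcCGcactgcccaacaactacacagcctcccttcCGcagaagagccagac
Pdgfra upstream, chr5:75152001-75152250, plus strand: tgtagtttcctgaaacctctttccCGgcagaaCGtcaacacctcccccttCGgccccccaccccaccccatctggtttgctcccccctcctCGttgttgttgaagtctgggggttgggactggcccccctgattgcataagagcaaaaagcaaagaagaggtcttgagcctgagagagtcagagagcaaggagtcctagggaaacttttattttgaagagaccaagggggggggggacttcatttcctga

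The 157 bases of Pdgfa held 20 CpG dinucleotides and were 72.0% G or C, and 4.4% of the 32851 promoters of the table hold as many CpGs in the same window. The 250 bases of Pdgfc, Pdgfd and Pdgfra held 3, 3 and 4 CpGs, numbers reached by 71.0%, 71.0% and 62.2% of all promoters. Searched on both strands, GGGCGG (the GC box), CCAAT and TGANTCA (the AP-1 site) had no match in the 4 stretches. Over all promoters they occur in 32.7%, 33.8% and 6.7% of windows of 250 bases and in 17.6%, 21.0% and 4.2% of windows of the length used for Pdgfa. TATAAA had 1 match, in Pdgfd, and occurs in 12.4% of the longer and 7.5% of the shorter windows. The exon bases nearest to the Pdgfa start were not searched. The promoter letters are those of the reference strain and describe composition only. Pdgfa and Pdgfc, the ligand genes that rose in both classes of CAFs, differ in this composition. The stretch of Pdgfa is shorter, however, and lies farther from its start.

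The first comparison asked how the family differs between CAFs and NFs of the same CD26 class. In CD26- cells, Pdgfa and Pdgfc rose 16.7- to 28.6-fold, Pdgfrl rose 2.28-fold in WB1P and 1.76-fold in WB1P-Myc, Pdgfra fell, and no change was called for Pdgfd and Pdgfrb. Pdgfb was called higher in these cells of WB1P-Myc (15.8-fold) and not in those of WB1P (5.39-fold). In CD26+ cells, Pdgfa and Pdgfc rose too, but Pdgfra was not called and Pdgfrb fell in WB1P. Counts were tested by edgeR's quasi-likelihood test over all 6 groups with Benjamini-Hochberg adjustment over 16601 genes, and a call is an adjusted p under 0.05. The models are compared with the same 3 control mice, so that their calls are not independent of each other.

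Of the 7 members, 3 were called higher and 1 lower in CD26- WB1P CAFs than in CD26- NFs, where 17.6% of all genes tested were called higher and 17.8% lower. In CD26- WB1P-Myc CAFs, 4 were called higher and 1 lower, against 19.1% and 17.5% of all genes. In CD26+ cells the numbers were 3 higher and 1 lower for WB1P, against 17.4% and 16.1% of all genes, and 3 higher and 0 lower for WB1P-Myc, against 17.4% and 17.3%. The median log2 fold change of the members was 1.19, 0.82, 0.88 and 0.87 in these comparisons, and that of all genes tested lay between -0.01 and 0.02. All 7 members passed the filter on low counts. With so few members the counts describe the family and single it out from no other group.

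Pdgfa (ENSMUSG00000025856, GRCm38 chromosome 5, 138976014 to 138997370, minus strand) encodes the chain that acts on the α receptor alone. In CD26- NFs it had 2.51, 2.69 and 2.63 CPM in the 3 mice. In CD26- CAFs it had 57.7, 86.4, 61.9, 38.1 and 73.5 CPM in the 5 WB1P mice, and 107, 49.8, 139, 60.2 and 29.3 CPM in the 5 WB1P-Myc mice. Every CAF value lay above every NF value, and the spread was wider in WB1P-Myc than in WB1P CAFs. The highest WB1P-Myc values, 107 and 139 CPM of replicates 1 and 3, each came from a double- library alone. The lowest, 29.3 CPM, was of a mouse marked 8x8. Among double- libraries alone the SD was 45.8 CPM in WB1P-Myc (n = 5) and 27.5 CPM in WB1P mice (n = 4). The log2 fold change was 4.75 (SE 0.62, adjusted p = 5.3e-06, edgeR) for WB1P and 4.84 (SE 0.62, adjusted p = 6.7e-06) for WB1P-Myc. In CD26+ cells the control mice had 2.11, 0.714 and 1.02 CPM, the 4 WB1P mice 20.2, 18.3, 5.19 and 11.1 CPM, and the 5 WB1P-Myc mice 9.29, 10.8, 17.7, 4.89 and 4.90 CPM. Here too the groups did not overlap, and the CAF levels were lower than those of CD26- CAFs. The log2 fold change in CD26+ cells was 3.60 (SE 0.61, adjusted p = 2.1e-04, edgeR) for WB1P and 2.95 (SE 0.59, adjusted p = 8.5e-04) for WB1P-Myc, and both also passed the fold limit of 2 on the log2 scale that the study used. Without control replicate 1, the control mouse with the highest CD26+ value, these were 4.20 (adjusted p = 6.1e-04) and 3.56 (adjusted p = 0.0017).

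Pdgfc (ENSMUSG00000028019, chromosome 3, 81036416 to 81214040, plus strand), a ligand of the α receptor that needs extracellular cleavage, also rose in CD26- cells. The 3 control mice had 0.749, 2.09 and 1.57 CPM. WB1P mice had 45.4, 28.0, 25.9, 40.6 and 29.1 CPM and WB1P-Myc mice 19.5, 21.7, 35.3, 22.4 and 25.5 CPM, so that the CAF groups were tight and stood clear of the NFs. In the fit this gave log2 fold changes of 4.65 (SE 0.42, adjusted p = 6.1e-08, edgeR) and 4.06 (SE 0.41, adjusted p = 3.5e-07). CD26+ NFs already held 14.7, 47.9 and 24.7 CPM. In CD26+ CAFs the values were 93.1, 85.8, 52.0 and 70.1 CPM for WB1P and 65.2, 83.8, 60.3, 44.7 and 41.0 CPM for WB1P-Myc. The WB1P mice lay above all control mice, whereas 2 WB1P-Myc mice lay below the highest control mouse. The log2 fold change in CD26+ cells was 1.59 (SE 0.35, adjusted p = 0.0018, edgeR) for WB1P and 1.12 (SE 0.33, adjusted p = 0.013) for WB1P-Myc. Without control replicate 2 the second value was 1.67 (adjusted p = 0.0020), and its call was lost without control replicate 1 (0.82, adjusted p = 0.064) and without control replicate 3 (1.01, adjusted p = 0.077).

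Pdgfb (ENSMUSG00000000489, chromosome 15, 79995874 to 80014977, minus strand) encodes the chain that binds both receptors and had the lowest mean level per kb of the 7 members in all 6 groups, with 1 to 523 counts per sum. CD26- NFs had 0.674, 0.711 and 0.915 CPM. CD26- WB1P CAFs had 3.79, 3.07, 4.00, 2.93 and 5.26 CPM, and CD26- WB1P-Myc CAFs 12.7, 2.68, 42.0, 4.44 and 2.76 CPM. All CAF values lay above all NF values, and a single WB1P-Myc mouse, replicate 3, stood far above the rest. In the same CD26- WB1P-Myc sums the 7 endothelial markers together had 86.0, 13.8, 49.9, 31.7 and 26.9 CPM and the 7 immune markers 67.8, 19.0, 49.6, 25.6 and 44.8 CPM, so that replicates 1 and 3, with the most Pdgfb, also had the highest sums of both lists. NFs had 24.2 to 48.6 and 18.4 to 25.2 CPM of these lists, and CD26- WB1P CAFs 15.3 to 22.3 and 7.58 to 45.0 CPM. The endothelial markers did not move together in CD26- WB1P-Myc CAFs. Against NFs, Emcn was called higher (log2 3.59, adjusted p = 3.4e-05, edgeR) and Pecam1 lower (-1.34, adjusted p = 0.036). Cldn5 (-1.18), Cdh5 (-1.08), Kdr (-1.02) and Tie1 (-0.92) were lower and Egfl7 (0.54) higher, none of them called. Replicate 3 also had the highest epithelial (126 CPM) and Schwann cell (57.4 CPM) marker sums of this group. The part of endothelial or immune cells in the Pdgfb values was not tested. The log2 fold change was 3.98 (SE 1.05, adjusted p = 0.0055, edgeR) for WB1P-Myc and 2.43 (SE 0.98, adjusted p = 0.058) for WB1P. Without replicate 3 the WB1P-Myc value was 2.84 (adjusted p = 0.0021), and with mice as a replicate block it was 2.91 (adjusted p = 0.0092, limma voom). The WB1P value came under the threshold with mice as a replicate block (2.41, adjusted p = 0.031, limma voom), without WB1P-Myc replicate 3 (2.45, adjusted p = 0.0037), without WB1P-Myc replicate 2 (2.42, adjusted p = 0.043) and without WB1P-Myc replicate 5 (2.43, adjusted p = 0.033), and with only En1+ libraries, an alternative added after the data had been seen, it was 3.64 (adjusted p = 0.0039). All groups share one estimate of the spread in this fit. In CD26+ cells Pdgfb had few counts, with 0.238 to 0.509 CPM in NFs, 0.388 to 1.63 CPM in WB1P and 0.0446 to 4.95 CPM in WB1P-Myc CAFs. The groups overlapped, and neither the value for WB1P (log2 1.76, 95% interval -0.44 to 3.96) nor that for WB1P-Myc (1.82, -0.32 to 3.96) was called. With mice as a replicate block the WB1P-Myc value was 0.24 (adjusted p = 0.90, limma voom), and without WB1P-Myc replicate 3 it was 0.15 (adjusted p = 0.88). The WB1P value of 1.77 had an adjusted p of 0.039 without WB1P-Myc replicate 3 and, at 1.78, of 0.047 with only the groups compared. Replicate 3 had the 4.95 CPM of the CD26+ WB1P-Myc group. Its endothelial and immune marker sums there, 25.9 and 49.0 CPM, were below the highest of the group, 32.2 and 213 CPM.

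Pdgfd (ENSMUSG00000032006, chromosome 9, 6168584 to 6378850, plus strand) encodes the chain that acts on the β receptor, and for it no tumor difference was called in either class. The 3 CD26- control sums had 24.3, 30.7 and 27.0 CPM, the WB1P sums 16.2 to 39.8 CPM with a median of 27.8, and the WB1P-Myc sums 13.5 to 30.9 CPM with a median of 21.5. CD26+ sums had 38.6, 112 and 86.5 CPM in control mice, 62.5 to 83.6 CPM in WB1P and 55.2 to 99.9 CPM in WB1P-Myc mice. The groups overlapped in both classes. The 95% intervals of the log2 fold change ran from -0.48 to 0.74 (WB1P) and from -0.88 to 0.33 (WB1P-Myc) in CD26- cells, and from -0.51 to 0.74 and from -0.45 to 0.76 in CD26+ cells, so that a log2 change of 1 in either direction lies outside each of them.

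**Figure D1:**
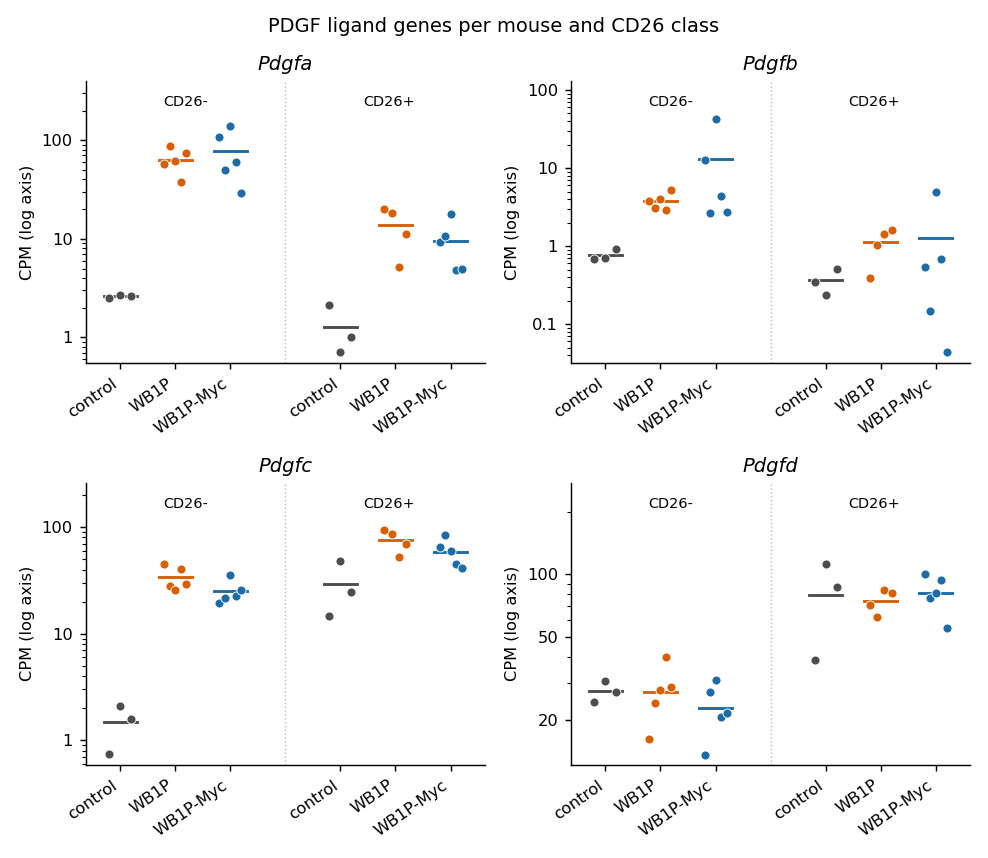
CPM (log axes) of the 4 ligand genes in the 25 sums of counts per mouse and CD26 class. Points are mice and horizontal lines group means. Pdgfa and Pdgfc of CD26- cells lie at 0.749 to 2.69 CPM in NFs and at 19.5 CPM or more in CAFs, Pdgfb has one WB1P-Myc mouse at 42.0 CPM, and Pdgfd differs by CD26 class and not visibly by tumor.

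Pdgfra (ENSMUSG00000029231, chromosome 5, 75152292 to 75198215, plus strand), the α receptor, was the receptor gene that moved opposite to its ligands. Its CD26- NF values were 1517, 1563 and 1593 CPM, a spread of 2.48% (CV). The CD26- WB1P CAFs had 154, 481, 317, 625 and 492 CPM, and the WB1P-Myc CAFs 342, 993, 362, 331 and 982 CPM. All 10 CAF sums lay below the NF sums, and 3 of the WB1P-Myc mice had 331 to 362 CPM where the other 2 had 982 and 993 CPM. On the log2 scale it fell by 1.78 (SE 0.41, adjusted p = 0.0020, edgeR) for WB1P and by 1.37 (SE 0.41, adjusted p = 0.013) for WB1P-Myc. Over the same sums, 9 pericyte markers together had 215 to 421 CPM in NFs and 1872 to 10891 CPM in CAFs. With only En1+ libraries the WB1P-Myc value was -0.94 (adjusted p = 0.096). CD26+ values overlapped, with 868, 1084 and 1055 CPM in NFs, 354 to 1036 CPM in WB1P and 549 to 1178 CPM in WB1P-Myc CAFs, and the 95% intervals ran from -1.28 to 0.53 and from -1.02 to 0.72 on the log2 scale. A fall of the size measured in CD26- cells of WB1P is outside the CD26+ interval, but the test of the difference between the classes, given with the CD26 comparison, missed the threshold.

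Pdgfrb (ENSMUSG00000024620, chromosome 18, 61045150 to 61085061, plus strand), the β receptor, had 1410, 688 and 1209 CPM in CD26- NFs. CD26- CAFs had 2065, 747, 1548, 1291 and 1493 CPM in WB1P and 2007, 1574, 1111, 1929 and 852 CPM in WB1P-Myc mice. The ranges overlapped, and the log2 fold changes of 0.48 (95% interval -0.18 to 1.15) and 0.42 (-0.24 to 1.09) were not called. CD26+ cells had 847, 362 and 598 CPM in NFs, 200, 259, 365 and 311 CPM in WB1P and 273, 432, 334, 350 and 460 CPM in WB1P-Myc CAFs. The value of 1 control mouse, replicate 2, lay within the CAF range. For WB1P the log2 fold change was -0.94 (SE 0.33, adjusted p = 0.032, edgeR), a call that was lost with mice as a replicate block (-0.82, adjusted p = 0.055, limma voom), without control replicate 1 (-0.57, adjusted p = 0.21), without control replicate 3 (-0.96, adjusted p = 0.078) and without WB1P replicate 3 (-0.89, adjusted p = 0.079). In WB1P-Myc it was -0.64 (95% interval -1.29 to 0.01, adjusted p = 0.12), which became -0.90 (adjusted p = 0.037) without control replicate 2.

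Pdgfrl (ENSMUSG00000031595, chromosome 8, 40926212 to 40990785, plus strand), the receptor-like gene without a kinase, was higher in CAFs of both classes. In CD26- cells it had 89.8, 160 and 110 CPM in NFs, 239, 296, 224, 258 and 221 CPM in WB1P and 94.0, 192, 268, 244 and 259 CPM in WB1P-Myc CAFs. The WB1P values did not overlap those of NFs, and WB1P-Myc replicate 1 lay within the NF range. It rose by 1.19 on the log2 scale (SE 0.32, adjusted p = 0.0057, edgeR) in WB1P and 0.82 (SE 0.31, adjusted p = 0.044) in WB1P-Myc. CD26+ cells had 57.4, 69.1 and 86.8 CPM in NFs, 97.2 to 133 CPM in WB1P and 62.8 to 185 CPM in WB1P-Myc CAFs, with log2 fold changes of 0.88 (SE 0.32, adjusted p = 0.041) and 0.87 (SE 0.31, adjusted p = 0.035). Apart from WB1P CD26- cells, the calls lay close to the threshold. In CD26- WB1P-Myc CAFs the call was lost with mice as a replicate block (0.73, adjusted p = 0.062, limma voom) and when any 1 mouse other than control replicate 2, WB1P replicate 1 or WB1P-Myc replicate 1 was left out, with log2 fold changes of 0.66 to 0.83 and adjusted p-values from 0.052 to 0.17. In CD26+ WB1P CAFs it was lost without any 1 of the control mice, of WB1P replicates 2 to 5 or of WB1P-Myc replicates 2 and 4 (0.77 to 1.03, adjusted p from 0.051 to 0.13). In CD26+ WB1P-Myc CAFs it was lost without any 1 of the control mice, WB1P replicate 5 or WB1P-Myc replicates 3 and 5 (0.68 to 1.03, adjusted p from 0.050 to 0.12).

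**Figure D2:**
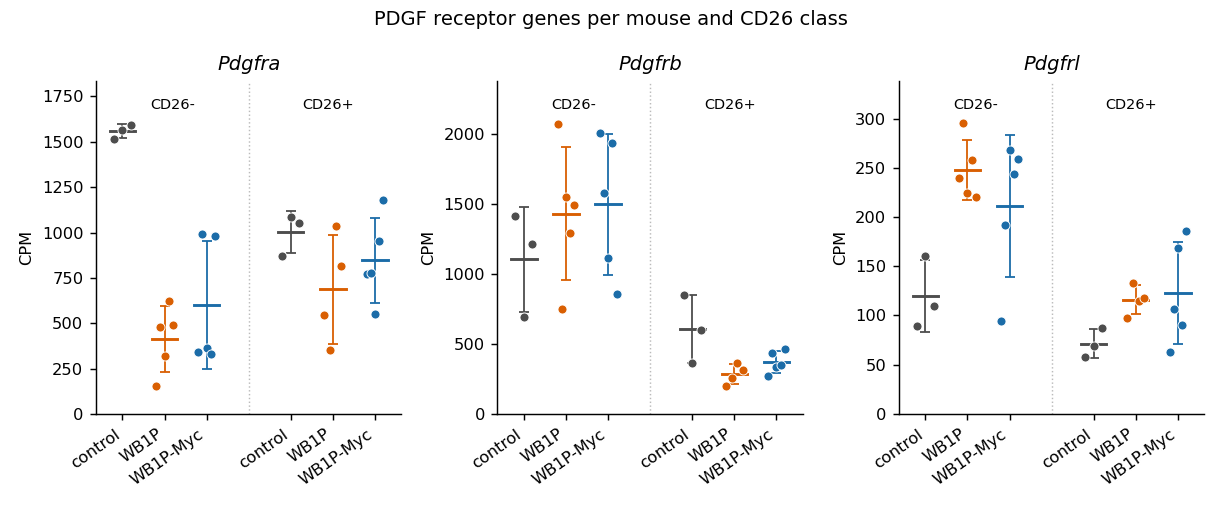
CPM of the receptor genes and of Pdgfrl per mouse and CD26 class, with lines at group means and bars of 1 SD. Pdgfra of CD26- cells lies at 1517 to 1593 CPM for NFs and at 154 to 993 CPM for CAFs, Pdgfrb is high in CD26- and low in CD26+ CAFs, and Pdgfrl is higher in CD26- than in CD26+ cells.

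**Figure D3:**
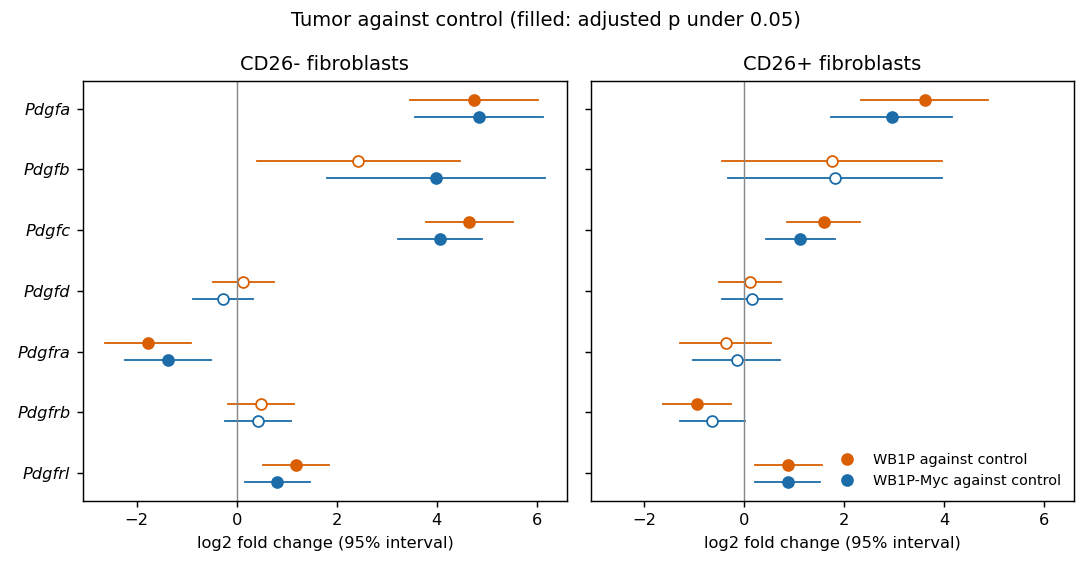
Log2 fold changes of the 7 members between CAFs and NFs of the same CD26 class, with 95% intervals from edgeR's quasi-likelihood fit. Filled points have an adjusted p under 0.05. In CD26- cells Pdgfa and Pdgfc lie between 4.06 and 4.84 and Pdgfra at -1.78 and -1.37.

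WB1P and WB1P-Myc CAFs were then compared with each other, to ask whether the Myc transgene of the tumor cells goes with a difference in the family. None of the 7 members was called in CD26- CAFs, where 0.512% of all genes were called, nor in CD26+ CAFs, where edgeR called 0% of all genes and 646 genes had an unadjusted p under 0.05 (DESeq2 called 9). In CD26- CAFs the log2 differences (WB1P-Myc minus WB1P) of Pdgfb, 1.55 (95% interval -0.01 to 3.12), and Pdgfc, -0.59 (-1.17 to -0.01), were the ones farthest from 0. The Pdgfb value was 0.39 (adjusted p = 0.77, edgeR) without WB1P-Myc replicate 3 and 0.50 (adjusted p = 0.66, limma voom) with mice as a replicate block. For the other 5 members the differences ran from -0.40 to 0.40. In CD26+ CAFs they ran from -0.66 for Pdgfa to 0.30 for Pdgfrb. That of Pdgfb was 0.055, but it was -1.46 with mice as a replicate block and -1.62 without WB1P-Myc replicate 3, none of them called. The narrowest of the intervals, that of Pdgfd in CD26- CAFs, ran from -0.93 to 0.12. The interval of Pdgfc in CD26- CAFs excluded 0, and it was still not called (adjusted p = 0.34, edgeR). Differences of that size between the models can thus go uncalled with 4 or 5 mice a group.

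The next question was how the family differs between CD26+ and CD26- cells of the same mice, first in NFs and then in CAFs. The main fit does not pair the classes of a mouse. Fits with mice as a replicate block, which do, are given where they changed a call. CD26+ cells had more Pdgfc and Pdgfd in all 3 models, and in CAFs less Pdgfa and Pdgfrb. In control mice 2 of the 7 members were called higher in CD26+ cells and 0 lower, where 2.67% of all genes were called higher and 1.49% lower. In WB1P mice 2 were called higher and 3 lower, against 13.0% and 13.0% of all genes. In WB1P-Myc mice 2 were called higher and 3 lower, against 9.29% and 10.7%. The median log2 difference of the members was -0.69, -0.999 and -0.63 in the 3 models, and that of all genes lay between -0.02 and 0.01.

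Pdgfc showed the largest CD26 difference of any member in NFs. It was 15.7, 19.6 and 22.9 times as high in the CD26+ as in the CD26- cells of the 3 control mice, a log2 difference of 4.36 (SE 0.43, adjusted p = 1.3e-06, edgeR). In CAFs the ratio was 1.28 to 3.32 in the 4 WB1P mice and 1.61 to 3.87 in the 5 WB1P-Myc mice. These are still differences in one direction, higher in CD26+ cells in every mouse, of 1.30 (SE 0.29, adjusted p = 0.0022) and 1.42 (SE 0.28, adjusted p = 8.6e-04) on the log2 scale.

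Pdgfd was higher in CD26+ cells in 12 of 12 mice that gave both classes. The ratio of CD26+ to CD26- was 1.59 to 3.66 in control, 2.10 to 2.96 in WB1P and 2.56 to 7.42 in WB1P-Myc mice. The log2 differences were 1.59 (SE 0.33, adjusted p = 0.0060, edgeR), 1.57 (SE 0.27, adjusted p = 1.6e-04) and 2.02 (SE 0.26, adjusted p = 8.0e-06). In control mice the call was lost without replicate 2 (1.35, adjusted p = 0.11) or replicate 3 (1.50, adjusted p = 0.12).

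Pdgfa was lower in CD26+ cells in 12 of 12 mice. In control mice, where it was at most 2.69 CPM, the log2 difference of -0.94 was not called (95% interval -2.21 to 0.33). In CAFs it was -2.08 (SE 0.47, adjusted p = 0.0023, edgeR) for WB1P and -2.83 (SE 0.45, adjusted p = 7.7e-05) for WB1P-Myc. Pdgfb was lower in CD26+ cells in 12 of 12 mice as well, with a call in WB1P-Myc (-3.15, SE 0.82, adjusted p = 0.0080, edgeR) and none in WB1P (-1.65, 95% interval -3.43 to 0.13). With only the groups compared in the fit the WB1P-Myc value was -3.17 and its call was lost (adjusted p = 0.075), whereas the WB1P value of -1.65 was called (adjusted p = 0.0072). The WB1P difference was called when each mouse was its own control (replicate block, -1.70, adjusted p = 0.0020) and without WB1P-Myc replicate 3 (-1.66, adjusted p = 0.025). Within En1+ libraries alone, the WB1P-Myc difference was -1.14 (adjusted p = 0.40), and within En1- libraries alone, which like the former was added after the data had been seen, it was -4.70 (adjusted p = 6.9e-04).

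Pdgfrb, which is carried by pericytes as well as fibroblasts, was lower in the CD26+ cells of 12 of 12 mice. The CD26+ to CD26- ratio was 0.494 to 0.601 in control, 0.167 to 0.283 in WB1P and 0.136 to 0.540 in WB1P-Myc mice, and the log2 differences were -0.79 (95% interval -1.53 to -0.05, adjusted p = 0.30), -2.22 (SE 0.31, adjusted p = 2.0e-05, edgeR) and -1.86 (SE 0.28, adjusted p = 5.3e-05). Pdgfra went the other way between models. It was lower in CD26+ cells in 3 of 3 control mice and higher in 4 of 4 WB1P and 4 of 5 WB1P-Myc mice, with log2 differences of -0.57 (95% interval -1.55 to 0.41), 0.83 (0.03 to 1.63, adjusted p = 0.12) and 0.65 (-0.11 to 1.41, adjusted p = 0.24), none of which was called. With mice as a replicate block the WB1P-Myc value was 0.82 (adjusted p = 0.018). Pdgfrl was lower in CD26+ cells in 12 of 12 mice. It was called in WB1P (-0.999, SE 0.28, adjusted p = 0.012, edgeR), but not without WB1P replicate 2 (-0.88, adjusted p = 0.060) or replicate 4 (-0.96, adjusted p = 0.054). In WB1P-Myc mice it was -0.63 (adjusted p = 0.096), and it was called with the replicate block (-0.63, adjusted p = 0.012) and without WB1P-Myc replicate 1 (-0.68, adjusted p = 0.038).

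**Figure D4:**
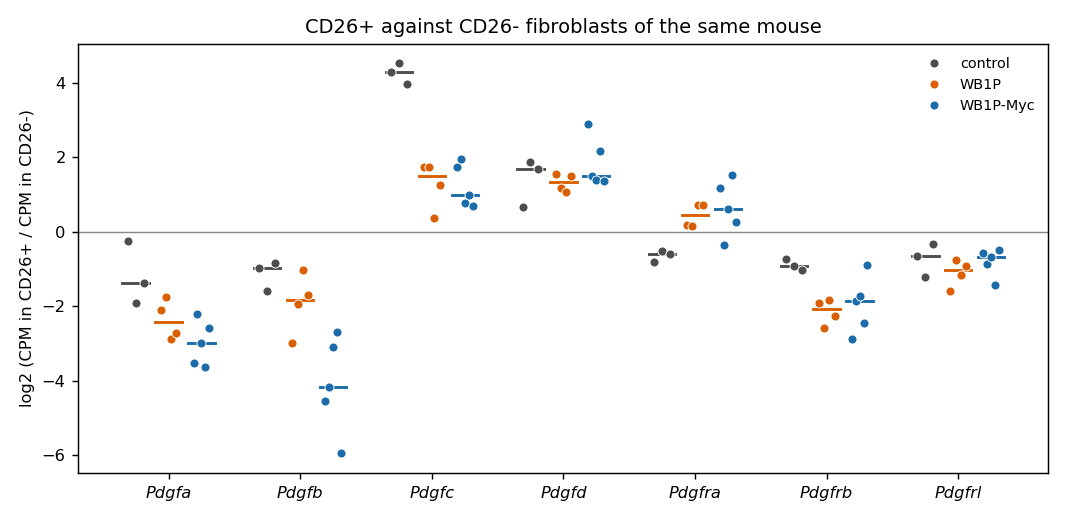
Log2 ratio of CPM in CD26+ to CPM in CD26- cells of the same mouse for the 7 members. Points are the 12 mice with both classes and lines are medians. Pdgfc drops from ratios of 15.7 to 22.9 in control mice to 1.28 to 3.87 in tumor mice, Pdgfd stays above 1 throughout, and Pdgfra changes sides between control and WB1P mice.

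Whether the CD26 difference itself differed between models was tested as an interaction. Pdgfc was the 1 member called in each tumor model against control, with a smaller CD26 difference than in control mice in WB1P (log2 -3.06, SE 0.50, adjusted p = 0.0020, edgeR) and in WB1P-Myc (log2 -2.94, SE 0.49, adjusted p = 0.0022). Of all genes, 1.07% were called lower and 0.789% higher in the WB1P interaction, and 0.885% and 0.277% in that of WB1P-Myc. Pdgfrb (log2 -1.43, 95% interval -2.39 to -0.47, adjusted p = 0.13) and Pdgfra (1.40, 0.14 to 2.67, adjusted p = 0.31) in WB1P had intervals that exclude 0 but missed the threshold. So did Pdgfrb (-1.06, -2 to -0.13, adjusted p = 0.40, edgeR) and Pdgfa (-1.89, -3.45 to -0.33, adjusted p = 0.35) in WB1P-Myc. DESeq2 put Pdgfrb in WB1P at an adjusted p of 0.049. For Pdgfa in WB1P the value was -1.14 (95% interval -2.73 to 0.44, adjusted p = 0.57). In WB1P-Myc the replicate block added Pdgfa (-1.79, adjusted p = 0.039, against -1.89 and 0.35 without it) and Pdgfb (-2.43, adjusted p = 0.045, against -2.16 and 0.71). Between WB1P-Myc and WB1P no member was called, and edgeR called 0% of all genes, with 549 at an unadjusted p under 0.05 and 2 called by DESeq2.

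Levels can be set against each other between genes only per length of transcript. Divided by the union of annotated exons (3119 bp for Pdgfa to 10024 bp for Pdgfra), the mean levels in CD26- NFs ran, in CPM per kb, from 201 ± 68.0 for Pdgfrb (SD, n = 3) and 155 ± 3.85 for Pdgfra, whose ranges over mice overlapped, through 38.4 ± 11.6 for Pdgfrl and 8.67 ± 1.03 for Pdgfd, to 0.837 ± 0.0289 for Pdgfa, 0.289 ± 0.133 for Pdgfc and 0.184 ± 0.0311 for Pdgfb. The last pair overlapped. In CD26- WB1P CAFs the order was Pdgfrb (261 ± 86.9, n = 5), Pdgfrl (79.2 ± 9.80), Pdgfra (41.3 ± 18.1), Pdgfa (20.4 ± 5.79), Pdgfd (8.65 ± 2.71), Pdgfc (6.64 ± 1.70) and Pdgfb (0.915 ± 0.224). Pdgfra, Pdgfa, Pdgfd and Pdgfc overlapped each with its neighbour. WB1P-Myc CAFs kept this order, and every neighbour overlapped except Pdgfrb and Pdgfrl. Pdgfa, which stood below Pdgfd in CD26- NFs, thus stood above it in the mean of CD26- CAFs, although their ranges overlapped there. In CD26+ cells Pdgfd was the ligand gene with the highest mean level per kb in all 3 models, at 25.1 ± 11.9 (n = 3), 23.7 ± 3.10 (n = 4) and 25.7 ± 5.48 (n = 5), and Pdgfc was the next at 5.72 ± 3.35, 14.8 ± 3.59 and 11.6 ± 3.38.

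The balance of the receptors was followed as the ratio of Pdgfra to Pdgfrb counts in each sum. It was 1.08, 2.27 and 1.32 in CD26- NFs, 0.0744 to 0.644 (median 0.329) in CD26- WB1P CAFs and 0.170 to 1.15 (median 0.326) in CD26- WB1P-Myc CAFs. In CD26+ cells it was 1.02, 3.00 and 1.76 in NFs, 1.37 to 2.84 (median 2.67) in WB1P and 1.64 to 2.82 (median 2.56) in WB1P-Myc CAFs. The ratio is one of counts and not of levels per kb, so that it sets the sums against each other and not the receptors. CD26- CAFs had the lowest ratios, with 1 of the 10 sums, that of WB1P-Myc replicate 5 at 1.15, within the range of NFs. These ratios rest on the same values as the comparisons above and were not tested.

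Markers listed for other cells moved with these results. The 9 pericyte markers of the list (Rgs5, Cspg4, Mcam, Kcnj8, Abcc9, Notch3, Des, Higd1b and Cox4i2, all in the table) together had 215 to 421 CPM in NFs, 1872 to 5443 CPM in WB1P CAFs and 2643 to 10891 CPM in WB1P-Myc CAFs of the CD26- class, and 148 to 327 CPM in all CD26+ sums. In CD26+ sums at most 1 of the 9 was at 0 counts, Rgs5 stood at 1.24 to 10.9 CPM and Higd1b at 0.51 CPM or less. The 5 smooth muscle markers were Acta2, Myh11, Tagln, Cnn1 and Actg2. Together they had 97.0 to 236 CPM in CD26- NFs, 1461 to 2808 CPM in WB1P and 914 to 2444 CPM in WB1P-Myc CAFs of that class. CD26+ sums had 15.4 to 507 CPM. Acta2 is not confined to smooth muscle, as the paper found it to differ between inflammatory and myofibroblastic CAFs. It reports the myofibroblastic signature mainly in CD26- CAFs. Whether the counts of this list come from smooth muscle cells or from fibroblasts was not tested. In the order of the replicates, the pericyte sum of CD26- CAFs was 5443, 1872, 2456, 1882 and 2833 CPM in WB1P mice, beside Pdgfrb at 2065, 747, 1548, 1291 and 1493 CPM and Pdgfra at 154, 481, 317, 625 and 492 CPM. In WB1P-Myc mice it was 10891, 3340, 5023, 4390 and 2643 CPM, beside Pdgfrb at 2007, 1574, 1111, 1929 and 852 CPM and Pdgfra at 342, 993, 362, 331 and 982 CPM. The mouse with the highest sum of each model had its highest Pdgfrb, but the other mice did not keep the order throughout, as WB1P-Myc replicate 3 had the next highest sum and less Pdgfrb than replicates 2 and 4. The part of these cells in the member results was not tested. In bulk samples such as these, fewer cells of a type and less RNA per cell cannot be told apart. Summed levels of the other lists were low beside the 32644 CPM or more of the fibroblast markers. The 7 endothelial markers had 9.35 to 86.0 CPM, the 7 immune markers 7.58 to 213 CPM, the 6 epithelial markers 0.357 to 174 CPM, the 5 platelet and megakaryocyte markers 3.25 to 55.5 CPM, the 4 adipocyte markers 4.82 to 157 CPM and the 4 Schwann cell markers 3.69 to 57.4 CPM. The fibroblast markers did not move together. In CD26- WB1P-Myc CAFs, Dcn (log2 -1.49, adjusted p = 0.0015, edgeR) and Lum (-1.49, adjusted p = 1.2e-04) were called lower than in NFs. Col1a1 (0.50), Col1a2 (0.28), Col3a1 (-0.07) and Fbln1 (-0.20) were not called there. In CD26+ WB1P-Myc CAFs, Col1a1 (0.895), Col1a2 (0.686) and Fbln1 (1.15) were called higher, and Dcn (-0.286), Lum (-0.622) and Col3a1 (0.525) were not called. The platelet list had 39.9 to 55.5 CPM in NFs and 3.25 to 13.3 CPM in CAFs of the CD26- class, and most of this was Itga2b. Pf4, a platelet chemokine, had a mean of 0.125 CPM in CD26- NFs and 0.439 and 0.699 CPM in CD26- WB1P and WB1P-Myc CAFs and was called higher in the latter (log2 2.32, adjusted p = 0.035, edgeR), and up to 3 of the 5 markers were at 0 in a sum. The part of platelets in the ligand values was not tested.

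**Figure D5:**
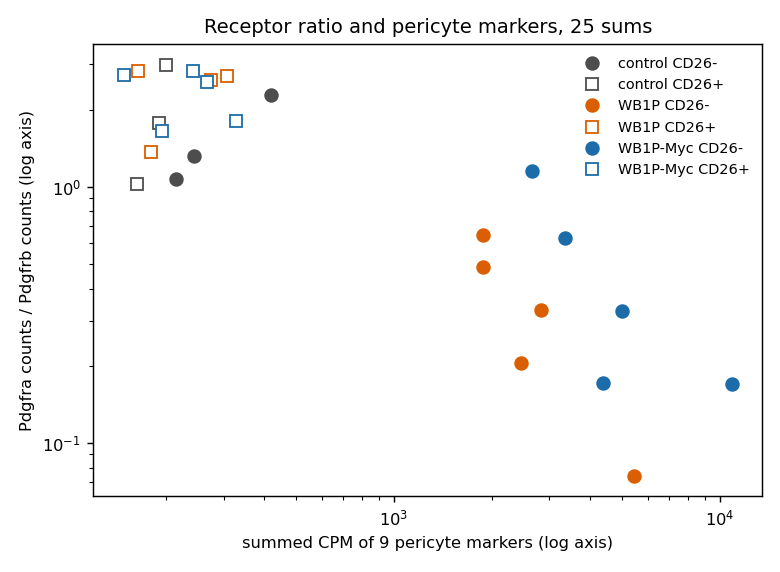
Ratio of Pdgfra to Pdgfrb counts against the summed CPM of 9 pericyte markers in the 25 sums (log axes). CD26- CAFs lie at 1872 to 10891 CPM and ratios of 0.0744 to 1.15, and all other sums at 148 to 421 CPM and ratios of 1.02 or more.

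The En1 lineage was compared within each CD26 class on single libraries, with the contrast averaged over the 3 models and 15584 genes tested. None of the 7 members was called in CD26- cells, where 0.00642% of all genes (1 gene) were called, or in CD26+ cells, where 0.0128% (2 genes) were. Pdgfb in CD26- cells was the member farthest from 0, with a log2 difference (En1+ minus double-) of -1.46 (95% interval -2.46 to -0.47, adjusted p = 0.69, edgeR) and, with mice as a replicate block, of -0.91 (adjusted p = 0.14). Its mean was 0.294 CPM in En1+ and 1.24 CPM in double- libraries of control mice (n = 3 each). In WB1P mice it was 3.32 (n = 5) and 4.44 CPM (n = 4), and in WB1P-Myc mice 3.04 (n = 3) and 13.1 CPM (n = 5). The WB1P-Myc mice with the highest Pdgfb, replicates 1 and 3, gave a double- but no En1+ library. For the other 6 members the 95% intervals lay within -0.95 and 0.55 in CD26- and within -0.64 and 0.6 in CD26+ cells.

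The other genes of the pathway were taken from 6 lists. Their counts stand beside the shares of all genes called, which were 17.6% higher and 17.8% lower in CD26- WB1P, 19.1% and 17.5% in CD26- WB1P-Myc, 17.4% and 16.1% in CD26+ WB1P and 17.4% and 17.3% in CD26+ WB1P-Myc CAFs, and with lists this small they single out none of them. Proteases that process the ligands (7 genes, all tested) had 1 member called higher in CD26- CAFs of each model and 0 lower. Furin, the convertase of A and B chains, rose by 1.15 (adjusted p = 3.6e-04, edgeR) in WB1P and 0.55 (adjusted p = 0.049) in WB1P-Myc on the log2 scale, from 144 ± 16.2 CPM (SD, n = 3) in NFs to 292 ± 18.4 and 214 ± 28.5 CPM (n = 5 each). In CD26+ CAFs Pcsk5, a related convertase, rose by 1.35 (adjusted p = 0.0037) in WB1P and 1.13 (adjusted p = 0.0088) in WB1P-Myc, where it was the only gene of the list called, and Furin rose by 0.66 (adjusted p = 0.027) in WB1P. The CD26 comparison called Pcsk6, another convertase, higher in CD26+ cells of all 3 models, by 4.25 (adjusted p = 2.0e-05) in control, 3.95 (adjusted p = 5.6e-07) in WB1P and 3.64 (adjusted p = 7.4e-07) in WB1P-Myc, which puts 188.5 to 318 CPM on average in CD26+ groups against 17.0 to 17.3 CPM in CD26- groups. Plat and Plau, the plasminogen activators, were not called between CAFs and NFs. The median log2 fold change of the list was 0.52, 0.11, 0.66 and 0.30 in CD26- WB1P, CD26- WB1P-Myc, CD26+ WB1P and CD26+ WB1P-Myc CAFs.

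Of the 4 binding and co-receptor genes, Cspg4, the NG2 proteoglycan that binds PDGF-AA and is also in the pericyte list, rose by 4.66 (adjusted p = 1.1e-05, edgeR) and 4.36 (adjusted p = 2.5e-05) in CD26- CAFs of WB1P and WB1P-Myc, from 18.0 ± 2.07 CPM (n = 3) to 417 ± 99.6 and 373 ± 196.5 CPM (n = 5 each). Nrp1, a co-receptor, fell by 0.88 (adjusted p = 0.019) and by 0.79 (adjusted p = 0.032). Lrp1, which associates with the β receptor, fell by 0.81 (adjusted p = 0.015) in WB1P-Myc, and Sparc, a matrix protein that binds PDGF-B, rose by 0.77 (adjusted p = 0.011) in WB1P. CD26+ CAFs had Sparc called higher in both models, by 1.04 (adjusted p = 0.0024) and 0.90 (adjusted p = 0.0046), and Cspg4 in WB1P, by 1.48 (adjusted p = 0.045).

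Among the 19 signalling adaptors and enzymes, all tested, 3 were called higher and 6 lower in CD26- WB1P CAFs and 2 higher and 8 lower in CD26- WB1P-Myc CAFs. In CD26+ cells 1 was higher and 7 lower in WB1P and 2 higher and 7 lower in WB1P-Myc. The medians were -0.21, -0.27, -0.39 and -0.39 on the log2 scale. Stat5b, a transcription factor, had the largest fall in CD26- CAFs, by 1.48 (adjusted p = 2.5e-06, edgeR) and by 1.28 (adjusted p = 1.9e-05), followed by the kinase gene Fyn. Src, a kinase gene, rose by 0.98 (adjusted p = 2.5e-05) and 1.02 (adjusted p = 2.1e-05). Pik3r1, the regulatory subunit of phosphatidylinositol 3-kinase, fell in CD26+ CAFs by 1.11 (adjusted p = 0.0030) and by 0.99 (adjusted p = 0.0044).

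The 10 receptor attenuators, ubiquitin ligases, phosphatases and inhibitors of signalling, had 1 called higher and 0 lower in CD26- WB1P CAFs, 1 and 1 in CD26- WB1P-Myc CAFs and 2 and 2 in CD26+ CAFs of each model. Cbl, a ubiquitin ligase of the receptors, fell by 0.93 (adjusted p = 0.019, edgeR) and by 0.98 (adjusted p = 0.0099) in CD26+ CAFs, and Socs1 rose by 1.61 (adjusted p = 0.0032) and 1.16 (adjusted p = 0.018). The median of the list lay between -0.28 and 0.12 in the 4 comparisons.

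Of 16 immediate early and PDGF-induced genes, 3 were called higher and 5 lower in CD26- WB1P CAFs, 2 and 4 in CD26- WB1P-Myc CAFs, 4 and 3 in CD26+ WB1P CAFs and 2 and 3 in CD26+ WB1P-Myc CAFs, with medians of -0.19, 0.10, -0.01 and 0.04. They did not move one way. Egr1 and Egr2, early transcription factors, fell in CD26- cells of WB1P by 1.55 (adjusted p = 0.0024, edgeR) and by 1.34 (adjusted p = 0.0079), while Has2, a hyaluronan synthase, rose by 1.17 (adjusted p = 0.0057) and Plaur, the urokinase receptor, by 1.30 (adjusted p = 0.024). Ier3 was called higher in all 4 comparisons, by 1.02 (adjusted p = 0.0041) and 0.99 (adjusted p = 0.0054) in CD26- and by 2.71 (adjusted p = 1.9e-06) and 2.28 (adjusted p = 7.0e-06) in CD26+ CAFs of WB1P and WB1P-Myc.

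The last list holds related receptors and ligands, 14 names of which 13 were in the table under these symbols. In CD26- CAFs 5 were called higher and 1 lower in each model. Pgf, placental growth factor, rose by 6.39 (adjusted p = 1.5e-06, edgeR) and 5.06 (adjusted p = 1.7e-05), and Flt1, its receptor, by 4.55 (adjusted p = 2.0e-05) and 4.50 (adjusted p = 2.9e-05). Kitl, the ligand of Kit, fell by 1.93 (adjusted p = 9.9e-05) and by 1.35 (adjusted p = 0.0028). In CD26+ CAFs 3 and 2 genes of the list were called higher and 0 lower, with Csf1r, a receptor of myeloid cells that is structurally close to the PDGF receptors, at 2.41 (adjusted p = 0.0040) and 2.74 (adjusted p = 0.0015). The immune marker list had 16.6 to 29.2 CPM in NFs, 46.7 to 111 CPM in WB1P CAFs and 17.7 to 213 CPM in WB1P-Myc CAFs of the CD26+ class, and its part in the Csf1r values was not tested. The medians over the list were 0.52, 0.30, 0.95 and 0.25 in the 4 comparisons.

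Between CD26+ and CD26- cells, 2.67% of all genes were called higher and 1.49% lower in control mice, 13.0% and 13.0% in WB1P and 9.29% and 10.7% in WB1P-Myc mice, and the counts of the lists stand beside these shares. In control mice 3 of the lists had 1 gene each called higher in addition to Pcsk6 among the proteases, namely Fyn at 1.09 (adjusted p = 4.0e-04, edgeR), Has2 at 1.57 (adjusted p = 0.0079) and Pgf at 3.14 (adjusted p = 0.0084), and Nrp1 at -1.18 (adjusted p = 0.041) was called lower. In WB1P mice the related receptors and ligands had 4 genes higher and 4 lower in CD26+ cells, with Flt1 at -6.40 (adjusted p = 5.8e-07) and Vegfd, a ligand of the related VEGF family, at 3.54 (adjusted p = 1.7e-05), and in WB1P-Myc mice 2 higher and 3 lower, with Flt1 at -5.90 (adjusted p = 2.4e-07) and Vegfd at 2.46 (adjusted p = 4.3e-04). Cspg4 was lower in CD26+ CAFs, with log2 differences of -3.03 (adjusted p = 1.7e-04) and -3.21 (adjusted p = 4.2e-05), beside the pericyte sums given above. The adaptors had 2 genes higher and 5 lower in WB1P and 2 higher and 4 lower in WB1P-Myc, and Fyn was the highest of them at 1.50 (adjusted p = 2.4e-07) and 1.24 (adjusted p = 8.4e-07). The attenuators had 2 higher and 3 lower in WB1P and 0 higher and 1 lower in WB1P-Myc, and the immediate early genes 5 higher and 1 lower and 3 higher and 1 lower.

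For each member the 3 genes with the most similar pattern were sought, by Spearman's rho of log2 CPM over the 25 sums. These points share mice and sorting, so rho is given as a description. Pdgfa was followed most closely by Lrrfip1 (0.97), Slco4a1 (0.95) and Inava (0.95), and Pdgfb by Ano1 (0.89), Vav1 (0.88) and Lcp2 (0.87). Pdgfc had AI427809 (0.92), Tmem30b (0.92) and Crisp2 (0.90) as its nearest genes, and Pdgfd had Bmp3 (0.92), Sema3d (0.92) and Pygl (0.92). Among those of Pdgfra were Abcd2 (0.89) and Fam13a (0.88), those of Pdgfrb were Arhgef17, Pear1 and Rem1 (0.95, 0.95 and 0.94), and those of Pdgfrl were Tfr2 (0.92), Myo7a (0.89) and Insrr (0.88). Among the members themselves, rho was 0.83 for Pdgfa with Pdgfb, 0.70 for Pdgfc with Pdgfd, -0.82 for Pdgfa with Pdgfra and -0.86 for Pdgfd with Pdgfrb.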

How the data were processed

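RNA was measured in 44 libraries of sorted mouse mammary fibroblasts. Stranded libraries of mRNA were made and read from both ends by the authors, who deposited 1 table of raw counts per gene. Per the submitters' processing notes, reads were aligned with HISAT2 2.2.1 to GRCm38. The counting tool and annotation are not given in the sources used here, but 54783 of the 55140 gene IDs found in GENCODE M21 have its coordinates, and union exon lengths were taken from it. Of 55487 lines in the table, 1 carries no gene name, with 0 counts. Reads shared with near-identical copies could have been dropped or split by the counting, which was not examined.

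For each mouse and CD26 class the counts of its libraries were summed, which gave 25 sums with 5790599 to 29498005 counts. Precision is set by the number of mice more than by these depths, except for Pdgfb. The 63 pairs of libraries of one group differed by more than sampling noise (lowest chi-square per degree of freedom 14.8), so that none was counted as a repeat. Sums were tested with edgeR 4.0.16 (filterByExpr, TMM, quasi-likelihood test, 6 groups in one fit, 16601 genes), and adjusted p-values are Benjamini-Hochberg values over all genes tested. En1 comparisons used single libraries (12 groups, 15584 genes). An adjusted p under 0.05 was a call. The study also required a log2 fold change beyond 2, and 15 of the 30 calls of members pass it. All intervals are 95% intervals. CPM were taken over all counts of the sum, without TMM. Fits were also run on simulated data with known changes. These were drawn without any correlation between the CD26 classes of a mouse, so that they cannot show how such pairing affects the tests.

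Same-numbered sums come from the same animal, and the deviations of the 12 mouse pairs of CD26 classes from their group means correlated at 0.251 to 0.736 (median 0.491). Fits with mice as a replicate block were alternatives (a fixed factor in edgeR, or limma 3.58.1 voom with an estimated correlation). The voom fits, used between models and against control, change the test as well as the block. No voom fit without the block was run, so that their shifts cannot be assigned to the block alone. Further alternatives were DESeq2 1.42.0, its size factors in edgeR, no filter on low counts, only the groups compared, leaving out the 2 mice marked 8x8 and leaving out each of the 13 mice. Fits on only En1- or only En1+ libraries were added after the data had been seen. The other tools were R 4.3.3, Python 3.11.15 and scipy 1.17.1.

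Named genes are the 7 members, the genes of 6 pathway lists (values for at most 2 per direction and list with the largest change among those called, and for genes a result turns on), and the 3 genes nearest to each member by Spearman's rho of log2 CPM (prior count 2). Members, lists and markers were chosen with earlier results of these data known. A few items that these rules would name are not reported here.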

Additional observations from a re-analysis of the deposited data

Results flagged for a closer look

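Pdgfb in WB1P-Myc replicate 3 stood apart from the other mice of its group in both CD26 classes, with 42.0 CPM in CD26- cells, a gap of 0.745 of the range of the group, and 4.95 CPM in CD26+ cells, a gap of 0.869. Of 28 sets of a member and a group of 4 or 5 mice, these 2 met Dixon's criterion, which chance meets in about 1 in 20 groups. That mouse gave no En1+ library, and its CD26- value comes from its double- library alone.

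Pdgfc differed in its CD26 difference between the models. The log2 difference between CD26+ and CD26- cells was 4.36 in control, 1.30 in WB1P and 1.42 in WB1P-Myc mice, and the tests of the difference gave -3.06 (SE 0.50, adjusted p = 0.0020, edgeR) for WB1P against control and -2.94 (SE 0.49, adjusted p = 0.0022) for WB1P-Myc against control. The tumor comparisons share the 3 control mice, in each of which the ratio was 15.7 or more, against 3.87 or less in all 9 tumor mice with both classes.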

How the results depend on the processing

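Of 98 member results over 14 comparisons, 30 were called, 21 of them under each of the 22 alternatives that could be fitted for them, and of the 68 not called 9 were called under some alternative. No direction of a called result reversed. Fits with mice as a replicate block, some of which also changed the test to limma voom, changed the calls named beside the results and no other. They raised the members called in the WB1P-Myc interaction from 1 to 3. The number of members called became 1 in the control CD26 comparison with only the groups compared, 2 in the WB1P interaction with DESeq2 and 2 in CD26+ WB1P against control with only En1- libraries (added later). Leaving out 1 mouse gave 4 to 5 members called in CD26- WB1P, 4 to 5 in CD26- WB1P-Myc, 2 to 5 in CD26+ WB1P, 1 to 3 in CD26+ WB1P-Myc, 1 to 2, 4 to 6 and 5 to 6 in the CD26 comparisons of control, WB1P and WB1P-Myc mice, and 1, 1 and 0 in the interactions. The Pdgfrl calls also ended, among other alternatives, without the filter on low counts (CD26- WB1P-Myc 0.83, adjusted p = 0.056, and CD26+ WB1P 0.87, adjusted p = 0.061) and with DESeq2 size factors (CD26- WB1P-Myc 0.79, adjusted p = 0.051). Of 21 alternatives each, the Pdgfrl call held in 6 for CD26- WB1P-Myc (log2 0.58 to 1.09). It held in 10 for CD26+ WB1P (0.77 to 1.03) and in 12 for CD26+ WB1P-Myc (0.68 to 1.03). The Pdgfb values rested most on the other groups in the fit: with only the groups compared, the adjusted p was 3.7e-04 for CD26- WB1P (2.43) and 0.075 for the CD26 difference in WB1P-Myc (-3.17).

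Counts over all genes moved by over 1.5 times in several comparisons. WB1P-Myc against WB1P in CD26- CAFs had 85 genes called and 6 to 402 under the alternatives, the control CD26 comparison 692 and 175 to 1916, the WB1P interaction 309 and 80 to 851, the WB1P-Myc interaction 193 and 40 to 523, the WB1P-Myc CD26 comparison 3326 and 2016 to 5346, the WB1P CD26 comparison 4312 and 2618 to 5833, CD26+ WB1P against control 5566 and 2834 to 6150, CD26+ WB1P-Myc against control 5753 and 3740 to 6373, and the En1 comparisons 1 and 0 to 32 in CD26- and 2 and 2 to 6 in CD26+ cells. The causes were not tested. Depth limits Pdgfb, with 1 count in the lowest sum. The En1+ and En1- alternatives and the fit of only the groups compared do not apply to the En1 comparisons and were not run there.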
